A study of Mus musculus with 4 samples.

Results

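The genes examined here encode the parts of the hemidesmosome and of its ligand in the basement membrane. They are Itga6, Itgb4, Itga3, Itgb1, Col17a1, Dst, Plec, Lama3 and Lamb3, chosen by symbol, 9 of the 56980 genes counted. Their transcripts were followed in basal, suprabasal and hair follicle cells of mouse embryonic skin, in 2 Ctrl and 2 TKO libraries of single-cell RNA-seq. All 4 libraries carried floxed Suv39h1 (f/f), floxed Setdb1 (f/f) and a constitutive Suv39h2 deletion (-/-), and both groups received tamoxifen. TKO libraries also carried K14CreERT2, a tamoxifen-dependent Cre under the keratin 14 promoter, which is active in basal keratinocytes, whereas Ctrl libraries lacked it. Suv39h1, Suv39h2 and Setdb1 are enzymes that methylate histone H3 at lysine 9, so both groups lack one of the enzymes from the start. The study describes recombination in this model as mosaic. Each library came from 1 embryo, labelled E16.5, although a list of litters in the study dates the litter used for sequencing to E15.5. The cells had been sorted for Epcam, a surface protein of epithelia, and for α6 integrin, the product of Itga6. Levels of Itga6 were therefore subject to the sort, and those of its partners may have been.

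Hemidesmosomes are plaques that fix basal keratinocytes to the basement membrane. The integrin pair α6β4 (Itga6, Itgb4) and the transmembrane collagen XVII (Col17a1) reach out of the cell to laminin-332, a trimer whose α3 and β3 chains come from Lama3 and Lamb3. Inside the cell the plakins plectin (Plec) and BPAG1 (Dst) tie the plaque to keratin filaments. The integrin pair α3β1 (Itga3, Itgb1) binds the same laminin but belongs to focal adhesions, which connect to actin. Inherited loss of several of these proteins causes epidermolysis bullosa, in which skin blisters at the junction of epidermis and dermis. Cells give up these contacts as they leave the basal layer.

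The stretch just upstream of a RefSeq transcription start is shown for Col17a1, which passed the test of TKO against Ctrl in hair follicle cells below, and for Lamb3, a chain of the ligand that did not. Both come from RefSeq (GRCm38.p6) and matched GRCm39 exactly and uniquely, at chr19:47680534-47680731 on the minus strand for Col17a1 and at chr1:192984052-192984278 on the plus strand for Lamb3. RefSeq has 2 such starts for Lamb3, of which the upstream one is shown, and the GENCODE gene begins further upstream still. The stretches are printed 5′ to 3′, without bases of annotated exons, and are 198 and 227 bases long.
Col17a1: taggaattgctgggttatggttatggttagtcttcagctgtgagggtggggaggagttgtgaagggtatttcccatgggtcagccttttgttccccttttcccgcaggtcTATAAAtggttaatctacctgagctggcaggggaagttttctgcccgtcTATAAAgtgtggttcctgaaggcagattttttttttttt
Lamb3: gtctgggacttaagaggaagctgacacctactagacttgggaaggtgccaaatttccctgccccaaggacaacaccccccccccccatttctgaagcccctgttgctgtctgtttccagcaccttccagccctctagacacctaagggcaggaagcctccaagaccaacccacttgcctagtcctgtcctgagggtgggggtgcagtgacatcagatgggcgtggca
Capitals mark TATAAA, the core of the TATA element. On both strands of the 250 bases before the RefSeq start, the Col17a1 window held it 2 times and held neither TGANTCA, the letters bound by AP-1, nor GGGCGG, the GC box. The Lamb3 window shown in part here held none of these 3 strings. Of 32851 RefSeq promoter windows of this length, 12.4% held TATAAA, 6.75% held TGANTCA and 32.7% held GGGCGG.

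On GRCm39, by GENCODE vM39, the integrin genes lie at chr2:71575960-71689757 (Itga6, plus strand), chr11:115865333-115899239 (Itgb4, plus), chr11:94935296-94967682 (Itga3, minus) and chr8:129411876-129460618 (Itgb1, plus). Col17a1 lies at chr19:47634783-47680533 (minus), and the plakins at chr1:33946918-34347742 (Dst, plus) and chr15:76055174-76116774 (Plec, minus). The laminin chain genes lie at chr18:12466876-12717747 (Lama3, plus) and chr1:192890007-193027705 (Lamb3, plus). Itgb1 and Col17a1 overlap no other annotated gene. The remaining members overlap between 1 (Itga3) and 11 (Dst) other genes on either strand, and whether the counting used strand was not stated, so their counts may include reads of those genes.

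The 4 libraries held 70749496 to 89655247 UMIs, molecules counted once each, in 3804 to 5785 barcodes. After filtering, 10764 cells remained, and no pair of libraries shared more than 3 cell barcodes. Of 9192 keratinocytes, 4561 were basal-like, 1618 suprabasal-like and 2134 hair follicle-like by their marker genes. The study describes aberrant basal and differentiating populations seen only in TKO, which were not set apart in these classes. When libraries were not aligned before clustering, a basal-like cluster had 6 and 3 Ctrl but 362 and 232 TKO cells. A suprabasal-like cluster then had 3 and 0 Ctrl but 87 and 263 TKO cells. Median UMIs per basal-like cell were higher in TKO (30911 and 28019.5) than in Ctrl (21590.5 and 17526.5). Setdb1 fell in TKO basal-like cells, from 70.7 and 58.2 to 39.5 and 43.0 CPM (counts per 1000000 UMIs of the class, log2 change -0.64, SE 0.13, adjusted p by edgeR = 0.0305). Suv39h1 (log2 change -0.17, adjusted p by edgeR = 0.406) and Suv39h2 (log2 change 0.26, adjusted p by edgeR = 0.379) did not pass the test, and a 3′ count says little where the deleted part lies elsewhere in the gene.

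Levels are given below as CPM of the class in each library, with Ctrl replicates 1 and 2 before TKO replicates 1 and 2. A 3′ count is compared across samples and cell classes only, never between genes. In Ctrl, 8 of the 9 genes were much lower in suprabasal-like than in basal-like cells, and Plec alone was nearly level. Because classes were built by clustering the same cells, with these 9 genes left out of the genes used, class levels are a description and carry no test.

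Among the integrins, Itga6 stood at 497, 501, 411 and 549 CPM in basal-like cells, at 337, 320.0, 229 and 282 CPM in hair follicle-like cells and at 33.6, 77.7, 60.7 and 55.1 CPM in suprabasal-like cells. Basal-like cells thus had 6.45 to 14.8 times the suprabasal-like level within a library. The sort kept cells by this protein, so the suprabasal-like cells seen here are those that still passed it. Itgb4, its partner, had 122, 131, 111 and 116 CPM in basal-like, 73.1, 79.4, 74.4 and 69.3 CPM in hair follicle-like and 7.62, 13.5, 26.3 and 13.8 CPM in suprabasal-like cells. Of the α3β1 pair, Itga3 had the steepest class gradient of the set. Against 55.5, 56.1, 46.8 and 55.4 CPM in basal-like and 36.1, 37.3, 34.8 and 38.1 CPM in hair follicle-like cells it had 0.877, 3.12, 2.51 and 0.910 CPM in suprabasal-like cells, a basal-like to suprabasal-like ratio of 18.0 to 63.3 that rests on only 11 to 31 suprabasal-like UMIs per library. Itgb1, which pairs with many α chains, had 222, 256, 229 and 241 CPM in basal-like cells and 216, 240.2, 246 and 238 CPM in hair follicle-like cells, ranges that overlap, against 21.0, 35.1, 46.6 and 27.2 CPM in suprabasal-like cells.

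Col17a1 had 399, 392, 226 and 325 CPM in basal-like cells, 243, 236, 144 and 163 CPM in hair follicle-like cells and 16.0, 30.5, 29.1 and 20.8 CPM in suprabasal-like cells. Basal-like cells exceeded hair follicle-like cells at least 1.56-fold and suprabasal-like cells at least 7.75-fold in every library. Of the plakins, Dst had 637, 542, 533 and 593 CPM in basal-like, 419, 470.0, 331 and 347 CPM in hair follicle-like and 120.5, 159, 114 and 95.2 CPM in suprabasal-like cells. Plec, which also joins desmosomes and other structures to intermediate filaments, had 126, 111, 105 and 109 CPM in basal-like and 96.7, 101, 85.4 and 98.9 CPM in suprabasal-like cells, a ratio of only 1.10 to 1.30. It was lowest in hair follicle-like cells, at 90.1, 79.7, 83.3 and 82.6 CPM, though these overlap the suprabasal-like range.

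For the laminin chains, as for Itgb1, hair follicle-like cells came close to basal-like cells. Lama3 had 229, 247, 159 and 192 CPM in basal-like cells and 254, 271, 148 and 178 CPM in hair follicle-like cells, so that hair follicle-like cells were the higher in both Ctrl libraries and the lower in both TKO libraries. In suprabasal-like cells it kept 64.9, 67.1, 59.2 and 56.0 CPM, a basal-like to suprabasal-like ratio of 2.68 to 3.68. Lamb3 had 73.6, 88.9, 55.3 and 68.7 CPM in basal-like cells and 70.9, 87.6, 40.6 and 62.1 CPM in hair follicle-like cells. Its suprabasal-like level was 3.45, 5.63, 8.49 and 3.72 CPM, a basal-like to suprabasal-like ratio of 6.51 to 21.3 that rests on 45 to 63 suprabasal-like UMIs a library. These levels lie on both sides of the 5.73 CPM of Lamb3 in fibroblast-like cells over all libraries and above the 0.971 CPM in immune-like cells. The part of free RNA in the ratio was not tested.

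**Figure D1:**
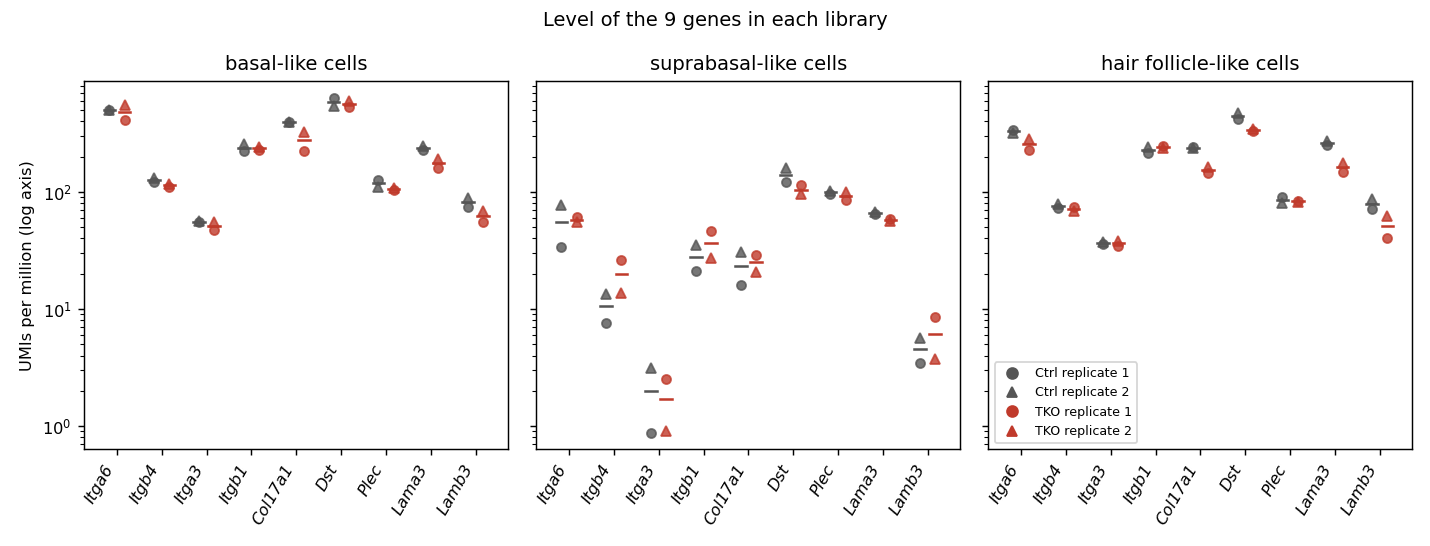
CPM (log axis) of each gene in the 4 libraries, in basal-like, suprabasal-like and hair follicle-like cells. Points are libraries and bars are means of the 2 libraries of a group. Col17a1 in hair follicle-like cells lies at 243 and 236 in Ctrl against 144 and 163 in TKO, and Plec has nearly one level in all 3 panels.

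Across the 12 sums of 3 classes in 4 libraries, each gene's log2(CPM + 1) was correlated with the mean of the other members, as a description with no test. The sums share libraries and depth. Pearson's r was between 0.95 (Lama3) and 0.99 (Col17a1) for 8 members and 0.17 for Plec. Outside the set, among 9050 genes with a mean of at least 10 CPM, the closest in pattern was Jag2, a Notch ligand (r = 0.997), followed by Tpbg, Tjap1, St3gal6, Nfia, Cep85, Fgfr2, Rbbp8, Fam110b and Cdk2 (r of 0.989 or more). Jag2 averaged 90.2 CPM in basal-like, 58.0 CPM in hair follicle-like and 4.74 CPM in suprabasal-like cells.

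Clusters within a class refined these levels. In pooled Ctrl cells, the hair follicle-like cluster led by Zfpm2 and Pthlh had 466 CPM of Col17a1 and 369 CPM of Lama3, the highest Lama3 level among clusters given a keratinocyte class. The cluster led by Lhx2 and Shh, a transcription factor and a signal of the developing follicle, had 116 CPM of Col17a1 and 167 CPM of Itga6, the lowest of both among the 5 hair follicle-like clusters. Among suprabasal-like clusters, the one led by Tmem132d held 276 CPM of Lama3 and 95.6 CPM of Col17a1. It was small and shallow, with 58 and 31 Ctrl cells, 51 and 36 Ctrl UMIs of Col17a1, and a median depth 0.415 times that of its libraries. Between the basal-like cluster led by Igfbp5 and the suprabasal-like one led by Ly6g6c and Sprr1b, genes of late differentiation, Col17a1 went from 482 to 5.32 CPM. Lama3 went from 266 to 44.0 CPM and Plec from 147 to 92.0 CPM between the same clusters.

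**Figure D2:**
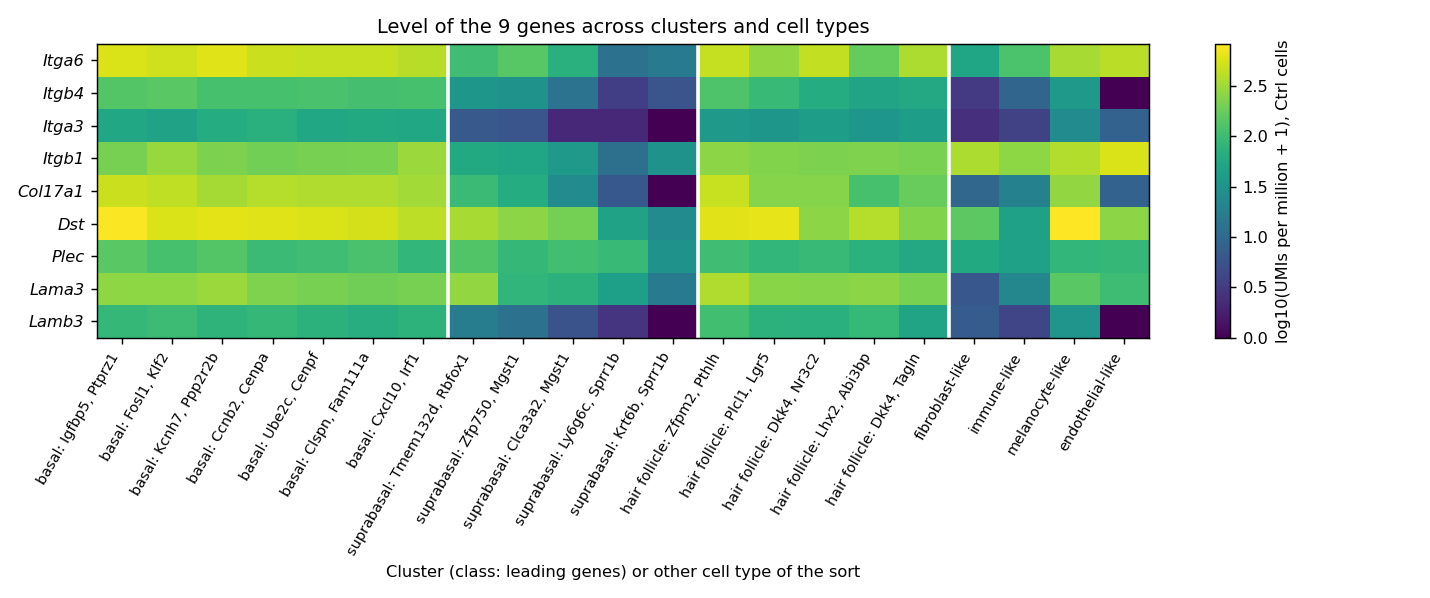
Colour gives log10(CPM + 1) of each gene in pooled Ctrl cells, for clusters (named by class and leading genes, white lines between classes) and for other cell types of the sort. Colours are read along a gene, not between genes. Col17a1 goes from 482 CPM in the cluster led by Igfbp5 to 5.32 in that led by Ly6g6c, and Plec from 147 to 92.0.

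Itgb4, Itga3, Col17a1 and Lamb3 were found in few fibroblast-like and immune-like cells. With every cell thinned to 5000 UMIs, a Col17a1 UMI was found in 2.22% of 540 fibroblast-like and 1.33% of 901 immune-like cells, against 83.2% ± 1.80 (SD, n = 2) of Ctrl basal-like cells. Median depths before thinning were 15563 and 18681 UMIs in the fibroblast-like and immune-like cells. For Itgb4 these shares were 0.556% and 0.777% against 45.6% ± 0.882 (SD, n = 2) of Ctrl basal-like cells. Itga3, Lama3 and Lamb3 were found in 0.370%, 1.30% and 2.04% of fibroblast-like cells and in 0.333%, 5.88% and 0.111% of immune-like cells. Itga6 was found in 15.6% of fibroblast-like and 39.0% of immune-like cells. The share of suprabasal-like cells with an Itga3 UMI was 0.468% and 1.64% in the Ctrl and 1.06% and 0.282% in the TKO libraries, Ctrl replicate 1 lying close to this background and TKO replicate 2 below it. For Lamb3 the suprabasal-like shares were 1.404%, 3.99%, 3.17% and 2.82%, the first below the fibroblast-like share, the others somewhat above it, and all above the immune-like share. Itgb1 (82.8%), Dst (46.7%) and Plec (22.6%) were common in fibroblast-like cells too. The few melanocyte-like cells, 3 to 29 per library, had 312, 106, 11.5 and 195 CPM of Col17a1 and 125, 265, 22.9 and 140 CPM of Lama3, from as few as 4 UMIs. In the endothelial-like cells, 3 or 4 per library, Lama3 had 115 CPM and Col17a1 had 4.27 CPM over all libraries.

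The comparison of TKO with Ctrl asks whether loss of the methyltransferases altered the anchoring genes. In hair follicle-like cells, Col17a1 and Lama3 were lower in TKO, with log2 changes of -0.59 (SE 0.11) and -0.63 (SE 0.12) between 2 libraries a group. Neither these nor any other member passed the test in basal-like or suprabasal-like cells, although in basal-like cells 6 members, among them Col17a1, Lama3 and Lamb3, were lower in both TKO libraries than in both Ctrl libraries, against 28.8% of all genes. The integrin genes showed no change that passed in any class.

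In hair follicle-like cells, where 2284 of 15843 genes were called at an adjusted p under 0.05, 14.4% in either direction, 6.43% of all genes were lowered and 7.98% raised. Of the 9 members 2 were lowered, 22.2%, and 0 were raised. DESeq2 also called 2, and 12.6% of all genes. Col17a1 (243 and 236 CPM in Ctrl, 144 and 163 CPM in TKO) fell by 0.59 on the log2 scale (SE 0.11, adjusted p by edgeR = 0.0130). Lama3 (254 and 271 CPM in Ctrl, 148 and 178 CPM in TKO) fell by 0.63 on the log2 scale (SE 0.12, adjusted p by edgeR = 0.0151). For both genes every TKO library lay below every Ctrl library. Without the cluster led by Zfpm2 and Pthlh, which had 103 and 160 cells in Ctrl but 25 and 28 in TKO, Col17a1 no longer passed (log2 change -0.43, adjusted p by edgeR = 0.0572), while Lama3 did (log2 change -0.60, adjusted p by edgeR = 0.0231). The hair follicle-like cluster led by Dkk4 and Tagln had 52 and 52 cells in Ctrl and 79 and 68 in TKO. In pooled Ctrl cells it had 173 CPM of Col17a1 and 214 CPM of Lama3. Its part in the 2 changes was not tested. Without Ctrl replicate 2, Lama3 no longer passed (log2 change -0.61, adjusted p by edgeR = 0.0598).

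The other laminin chain and the plakin Dst pointed the same way without passing. Lamb3 had a log2 change of -0.57 (SE 0.20, adjusted p by edgeR = 0.108), and without TKO replicate 2, the higher of the TKO pair, -0.92 (adjusted p by edgeR = 0.000485). Without TKO replicate 1 it was at -0.29 (adjusted p by edgeR = 0.255). Without an expression filter Lamb3 passed too (log2 change -0.58, adjusted p by edgeR = 0.0102). Dst had -0.34 (SE 0.11, adjusted p by edgeR = 0.0747) and Itga6 -0.31 (SE 0.13, adjusted p by edgeR = 0.151). Itga6 passed with each cell thinned to 5000 UMIs (log2 change -0.49, adjusted p by edgeR = 0.0343), and without TKO replicate 2 (log2 change -0.47, adjusted p by edgeR = 0.0165), but was at -0.15 without TKO replicate 1 (adjusted p by edgeR = 0.4997). Dst passed at Leiden resolution 0.5 (log2 change -0.50, adjusted p by edgeR = 0.0404) and with components left uncorrected between libraries (log2 change -0.65, adjusted p by edgeR = 0.0376). Itgb4, Itga3, Itgb1 and Plec lay between -0.03 and 0.14 on the log2 scale. Both TKO libraries were below both Ctrl libraries for 5 members (Itga6, Col17a1, Dst, Lama3 and Lamb3) in hair follicle-like cells, against 34.5% of all genes tested in this class.

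In basal-like cells 2047 of 17363 genes were called (11.8%), 4.23% of all genes being lowered and 7.56% raised. Of the 9 members 0 passed, and 3 had an unadjusted p under 0.05. The share of all genes with an unadjusted p under 0.05 was not worked out, so this count and those of its kind below have no background. The 3 members were Lama3 (log2 change -0.43, SE 0.13, adjusted p by edgeR = 0.0801), Col17a1 (log2 change -0.52, SE 0.18, adjusted p by edgeR = 0.122) and Lamb3 (log2 change -0.39, SE 0.15, adjusted p by edgeR = 0.155). DESeq2 called 2 members here, Lama3 (adjusted p = 0.0289) and Col17a1 (adjusted p = 0.0444), and 14.6% of all genes. For Col17a1 the TKO libraries differed, 226 against 325 CPM, and leaving out 1 of them moved the value both ways. Without TKO replicate 2 it passed (log2 change -0.83, adjusted p by edgeR = 0.0447), and without TKO replicate 1 it was at -0.26 (adjusted p by edgeR = 0.221). Lama3 was at -0.28 without TKO replicate 1 (adjusted p by edgeR = 0.215) and Lamb3 at -0.22 (adjusted p by edgeR = 0.434). With 1 library of a group left out, the spread comes from the other group's pair alone, and the remaining library is assumed to vary like it. Lama3 passed with each cell thinned to 5000 UMIs (log2 change -0.46, adjusted p by edgeR = 0.0472) and with clusters from components left uncorrected between libraries (log2 change -0.48, adjusted p by edgeR = 0.0462).

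The remaining basal-like values were small. Itga6, Itgb1 and Dst lay between -0.06 and -0.02 on the log2 scale, and Itgb4, Itga3 and Plec between -0.15 and -0.12. Both TKO libraries were below both Ctrl libraries for 6 of 9 members, against 28.8% of all genes tested in basal-like cells. Without the clusters that had Fosl1 among their leading genes, the larger of which had 200 and 481 cells in Ctrl and 193 and 70 in TKO, the log2 changes were -0.52 for Col17a1 and -0.44 for Lama3 (adjusted p by edgeR of 0.138 and 0.102).

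In suprabasal-like cells 132 of 13714 genes were called (0.963%), and 0 of 9 members, 2 with an unadjusted p under 0.05. DESeq2 called 0 as well, and 4.06% of all genes. Dst had a log2 change of -0.51 (SE 0.16, adjusted p by edgeR = 0.224) and Lama3 one of -0.29 (SE 0.11, adjusted p by edgeR = 0.306), and for these 2 members both TKO libraries lay below both Ctrl libraries. Itgb4 was the only member whose TKO libraries both lay above Ctrl, by 0.84 on the log2 scale (SE 0.39, adjusted p by edgeR = 0.390). Its TKO replicate 1 had 26.3 CPM and its TKO replicate 2 had 13.8 CPM, hardly above the 13.5 CPM of Ctrl replicate 2. Groups thus did not overlap for 3 of 9 members, against 48.6% of all genes tested. Without an expression filter edgeR called both Dst (log2 change -0.53, adjusted p = 0.0232) and Itgb4 (log2 change 0.81, adjusted p = 0.0253), among 1608 genes or 6.06% of those then tested. With each cell thinned to 5000 UMIs Itgb4 was at 0.28 (adjusted p by edgeR = 0.857), and its values over 14 alternatives ran from 0.28 to 1.34 on the log2 scale, 2 of them called.

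Over all keratinocytes, 6.88% of 19936 genes were called and 0 of 9 members, 2 with an unadjusted p under 0.05 (Col17a1 and Lama3), both of which DESeq2 called, with 13.3% of all genes. The lowest adjusted p by edgeR of a member was 0.0809.

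**Figure D3:**
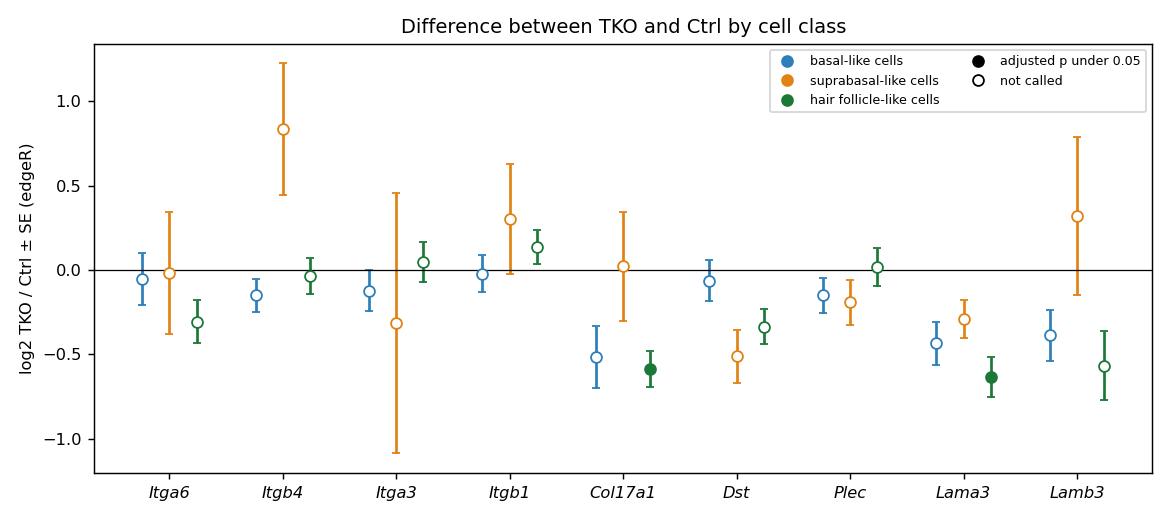
log2 ratio of TKO to Ctrl with its SE for each gene, by cell class. Filled points passed an adjusted p of 0.05 in edgeR. Only Col17a1 (-0.59) and Lama3 (-0.63) in hair follicle-like cells are filled, and suprabasal-like Itga3, with few UMIs, has a wide error.

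Whether the TKO effect differed between classes was tested directly, as an interaction. Between suprabasal-like and basal-like cells, 3.09% of 17346 genes differed in edgeR and 0 of 9 members passed, 2 with an unadjusted p under 0.05. One was the gap of Itgb4, whose log2 change was higher by 0.94 in suprabasal-like cells (SE 0.31, adjusted p by edgeR = 0.158), and the other was that of Dst (log2 difference -0.48, SE 0.18, adjusted p by edgeR = 0.211). Between hair follicle-like and basal-like cells 0.288% of genes differed and again 0 of 9 members passed, 0 of them with an unadjusted p under 0.05, with log2 differences of -0.09 for Col17a1 (SE 0.32, adjusted p by edgeR = 0.989) and -0.23 for Lama3 (SE 0.12, adjusted p by edgeR = 0.630). The calls in hair follicle-like cells are thus not shown to be particular to them.

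Within clusters the direction could be followed at finer grain, as a description. Of the 7 basal-like clusters, all with at least 20 cells in every library, Col17a1 was lower in both TKO libraries than in both Ctrl libraries in 7, Lama3 in 6, and Lamb3, Itgb4 and Itga3 in 4 each, whereas Itga6 was so in 0. Itgb1 was higher in both TKO libraries in 3 of these clusters and lower in 1. Over all tested genes and these clusters, 23.6% of gene and cluster pairs were lower in this sense. The share of pairs higher in both TKO libraries was not worked out for any class, so counts of higher clusters have no background. Of the 5 hair follicle-like clusters, Col17a1 and Lama3 were lower in 5 each and Itga6 and Lamb3 in 4 each, against 24.8% of pairs, while Itgb1 was higher in 2 and lower in 0. Dst was lower in 2 and higher in 1, Plec lower in 1 and higher in 1, and Itgb4 and Itga3 each lower in 0 and higher in 1. Of the 3 suprabasal-like clusters with at least 20 cells in every library, Col17a1 and Lama3 were lower in 2 and higher in 1, and Itgb4 was higher in 2. No share over all genes was worked out for these clusters. The smaller cluster led by Tmem132d, with 16 and 24 TKO cells, is not among them. There Col17a1 had 82.2, 124, 0 and 0 CPM, Lama3 293, 239, 108 and 131 CPM, and Itgb4 32.2, 38.0, 14.4 and 18.7 CPM. The clusters share their libraries and are not independent. In the cluster led by Zfpm2 and Pthlh itself, Col17a1 had 479, 455, 304 and 319 CPM.

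Because TKO cells held more UMIs, shares of cells with a UMI were compared at 5000 UMIs per cell. In basal-like cells a Col17a1 UMI was found in 84.4% and 81.9% of Ctrl cells and 63.5% and 76.6% of TKO cells. For Lama3 the shares were 66.9% and 65.6% in Ctrl and 52.7% and 57.9% in TKO. Among hair follicle-like cells Lama3 was found in 70.1% and 70.2% of Ctrl cells and in 44.7% and 54.9% of TKO cells, and Col17a1 in 64.4% and 62.0% against 41.7% and 51.6%. Groups did not overlap in any of these comparisons, but with 2 libraries a group the exact two-sided permutation test cannot go below p = 0.3333. Unthinned, the same shares of basal-like cells with Col17a1 were 99.0% and 98.3% in Ctrl and 96.2% and 98.2% in TKO, where nearly every cell is counted as positive. Between 1 and 13 cells per library in these classes were too shallow to be thinned.

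Recombination being mosaic, TKO basal-like cells were also split by whether they held, at 5000 UMIs, at least 1 UMI of 8 genes that are nearly silent in Ctrl (Npffr1, Gm11884, Col28a1, 1700030N03Rik, Gm42653, Gria3, Svop and D7Ertd128e). The 8 genes had been chosen on earlier results of these libraries. Such derepressed cells made up 68.0% and 61.7% of TKO basal-like cells, against 1.44% and 0.911% of Ctrl cells. A cell without such a UMI may still be recombined, so the remainder is a mixture. Here 1254 of 14849 genes passed (8.45%), 2.88% of all being lower in derepressed cells, and 2 of 9 members were lower.

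Itga6 had 446 and 600.4 CPM in the other TKO cells of replicates 1 and 2 and 395 and 518 CPM in the derepressed ones (log2 difference -0.20, SE 0.05, adjusted p by edgeR = 0.00407). Col17a1 had 251 and 355 CPM in the other and 214 and 308 CPM in the derepressed cells (log2 difference -0.23, SE 0.06, adjusted p by edgeR = 0.00305). With at least 2 UMIs required, Itga6 still passed (adjusted p by edgeR = 0.00715) and Col17a1 did not (adjusted p by edgeR = 0.0684). In Ctrl cells Col17a1 stood at 399 and 392 CPM, so even the other TKO cells were below it, whereas Itga6 at 497 and 501 CPM in Ctrl lay between the values of the other TKO cells.

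Lama3 had 170 and 190.2 CPM in the other and 154 and 194 CPM in the derepressed cells (log2 difference -0.07, SE 0.06, adjusted p by edgeR = 0.641), all 4 values below the 229 and 247 CPM of Ctrl. Lamb3 (log2 difference -0.22, adjusted p by edgeR = 0.0631), Plec (-0.17, adjusted p by edgeR = 0.112) and Itgb4 (0.11, adjusted p by edgeR = 0.360) did not pass, and Itga3, Itgb1 and Dst lay between -0.03 and 0.03. The split compares cells of the same 2 embryos, so its n is 2. Suv39h1, one of the targeted genes, was also lower in derepressed cells (log2 difference -0.47, adjusted p by edgeR = 0.000682).

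**Figure D4:**
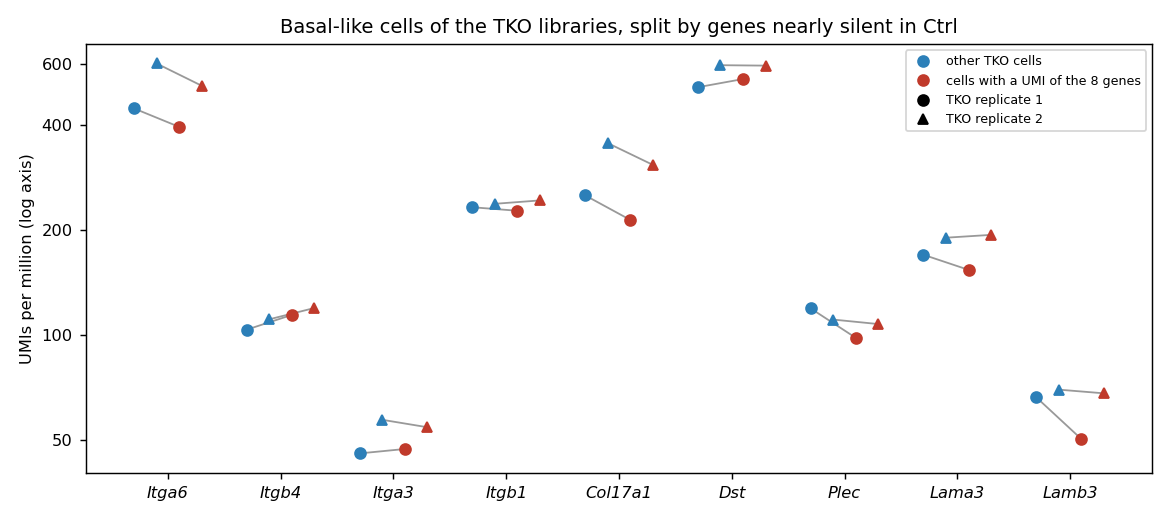
CPM (log axis) of each gene in TKO basal-like cells without (blue) and with (red) a UMI of the 8 genes nearly silent in Ctrl. Lines join the 2 states of 1 library. Itga6 and Col17a1 slope down in both libraries, and Lama3 slopes down in one and up in the other.

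Markers of other cell types moved between the groups in several classes. The 6 fibroblast markers summed to 1269 to 1398 CPM in Ctrl and 844 to 1026 CPM in TKO basal-like cells, and to 1506 to 1725 CPM in Ctrl and 1580 to 1819 CPM in TKO hair follicle-like cells. Dcn made up nearly all of these sums. In hair follicle-like cells Col1a2 had 36.8 and 51.5 CPM in Ctrl and 6.87 and 11.2 CPM in TKO, and Lum had 5.92 and 6.93 against 2.65 and 3.56 CPM. Col1a1, Col3a1 and Pdgfra were at 3.63 CPM or less in every library of both classes. The 6 immune markers summed to 2.95 to 4.12 CPM in Ctrl and 6.14 to 6.96 CPM in TKO basal-like cells, and to 10.9 to 14.2 CPM against 26.8 to 29.0 CPM in hair follicle-like cells, in each case with all 6 detected. Endothelial markers summed to 18.3 to 18.9 CPM in Ctrl and 25.3 to 37.8 CPM in TKO basal-like cells, and to 13.2 to 16.2 CPM against 18.2 to 25.1 CPM in hair follicle-like cells. Melanocyte markers in hair follicle-like cells summed to 24.5 to 35.0 CPM in Ctrl and 9.81 to 12.5 CPM in TKO, and Merkel cell markers to 5.02 to 14.9 CPM and 1.24 to 3.34 CPM. In suprabasal-like cells immune markers summed to 4.73 to 5.37 CPM in Ctrl and 6.54 to 8.52 CPM in TKO, melanocyte markers to 5.15 to 5.63 and 9.51 to 15.0 CPM, and endothelial markers to 5.59 to 9.45 and 9.76 to 27.3 CPM. The melanocyte sums in basal-like cells were 6.65 to 7.48 CPM in Ctrl and 8.28 to 9.55 CPM in TKO. Tyrp1 was at 0 in basal-like and suprabasal-like cells, and Cdh5, Kdr, Cldn5 and Atoh1 in suprabasal-like cells. The part of this in the results was not tested. Epcam, the other gene of the sort, had 152, 158, 232 and 188 CPM in basal-like cells (log2 change 0.44, SE 0.12, adjusted p by edgeR = 0.0613).

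The wider adhesion machinery was read from 4 lists of neighbouring genes. Of 30 basement membrane and anchoring genes, 27 were tested in basal-like cells, where 4 were raised, 6 lowered and 17 did not pass, against 7.56% of all genes raised and 4.23% lowered. Their median log2 change was -0.14, against -0.01 over all genes. Col7a1, which encodes the anchoring fibrils below the hemidesmosome, fell from 126 and 118 CPM to 44.4 and 63.6 CPM (log2 change -1.17, adjusted p by edgeR = 0.0146). Col4a6 (-1.06, adjusted p by edgeR = 0.00739) and Col4a5 (-0.67, adjusted p by edgeR = 0.0244), chains of basement membrane collagen IV, and Lamb2 (-0.92, adjusted p by edgeR = 0.0110), a laminin β chain, fell as well. So did Fras1 (-0.52, adjusted p by edgeR = 0.0257) and Frem2 (-0.46, adjusted p by edgeR = 0.0309), which hold embryonic epidermis to the dermis as one complex.

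Among the 4 raised in the same list were the laminin chain Lama1 (0.76, adjusted p by edgeR = 0.0178) and Nid1, a linker of laminin and collagen IV (2.07, adjusted p by edgeR = 0.0139). The rest of the 4 are not named here. Nid1 was rare, at 0.509 and 0.680 CPM in Ctrl and 2.63 and 2.37 CPM in TKO. Among hair follicle-like cells again 4 were raised and 6 lowered of 27 tested, with a median of -0.06 against -0.01 over all genes, of which 7.98% were raised and 6.43% lowered. There Col7a1 had 91.6, 86.5, 38.0 and 46.7 CPM (log2 change -1.02, adjusted p by edgeR = 0.00423).

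Of 34 other integrin and focal adhesion genes, 31 were tested in basal-like cells, with 5 raised, 3 lowered and 23 not passing (median 0.04), against 7.56% of all genes raised and 4.23% lowered. Of 30 tested in hair follicle-like cells, 3 were raised and 5 lowered, against 7.98% and 6.43% of all genes. Tns4 (-1.70, adjusted p by edgeR = 0.00739) and Tns1 (-0.77, adjusted p by edgeR = 0.00999), both tensins, were lowered, as was the tetraspanin Cd9 (-0.47, adjusted p by edgeR = 0.0459). Raised were Itga1 (1.51, adjusted p by edgeR = 0.0219), Itgav (0.45, adjusted p by edgeR = 0.0392), Tns3 (0.45, adjusted p by edgeR = 0.0398), Bcar1 (0.83, adjusted p by edgeR = 0.0408) and Tln2 (0.52, adjusted p by edgeR = 0.0441). Itga1, a collagen receptor chain, was scarce in basal-like cells (2.71, 2.21, 8.38 and 5.63 CPM) and went the other way in hair follicle-like cells (20.3, 33.2, 3.53 and 7.69 CPM, log2 change -2.17, adjusted p by edgeR = 0.00974).

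Desmosomes join keratinocytes to each other rather than to the basement membrane. Of 21 desmosome and adherens junction genes, 1 was lowered in basal-like cells, Evpl (-0.73, adjusted p by edgeR = 0.0316), and 20 did not pass, with a list median of -0.32, against 4.23% of all genes lowered. Of these 21 genes, 8 had an unadjusted p under 0.05 in basal-like cells and DESeq2 called 5, against 14.6% of all genes by DESeq2. In hair follicle-like cells edgeR called 11 lowered and 0 raised and DESeq2 called 8 (median -0.40, against -0.01 over all genes), where edgeR called 6.43% of all genes lowered and 7.98% raised and DESeq2 called 12.6% in either direction. Whether the list differed between the classes was not tested. Chosen after their values were seen, examples in hair follicle-like cells are Pkp1 (123, 118, 46.2 and 55.1 CPM, log2 change -1.20, adjusted p by edgeR = 0.00178) and the desmosomal cadherin Dsc3 (124, 122, 30.8 and 63.4 CPM, log2 change -1.33, adjusted p by edgeR = 0.0225).

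Of 11 basal keratins and plakin partners, Krt15 alone was lowered in basal-like cells, from 4744 and 5689 to 2160 and 2346 CPM (log2 change -1.21, adjusted p by edgeR = 0.00385), and 10 did not pass, against 4.23% of all genes lowered. Krt15 was lowered in hair follicle-like cells too (log2 change -1.64, adjusted p by edgeR = 0.000380), and Krt14, whose filaments end at hemidesmosomes, was raised (log2 change 0.40, adjusted p by edgeR = 0.0277), against 6.43% of all genes lowered and 7.98% raised. In suprabasal-like cells 0.963% of all genes passed. Of 23 genes of the basement membrane list only Fras1 passed, being lowered (log2 change -0.93, adjusted p by edgeR = 0.0433), and of the 11 keratins and partners only Krt17, named after its value was seen, was raised, from 30.4 and 48.5 to 204 and 279 CPM (log2 change 2.54, adjusted p by edgeR = 0.0325). Of the focal adhesion list 0 of 26 passed, 8 with an unadjusted p under 0.05, and of the desmosome list 0 of 21, 5 with an unadjusted p under 0.05, while DESeq2 called 3 and 2. For the basement membrane and keratin lists DESeq2 called 5 of 23 and 3 of 11, against 4.06% of all genes by DESeq2.

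**Figure D5:**
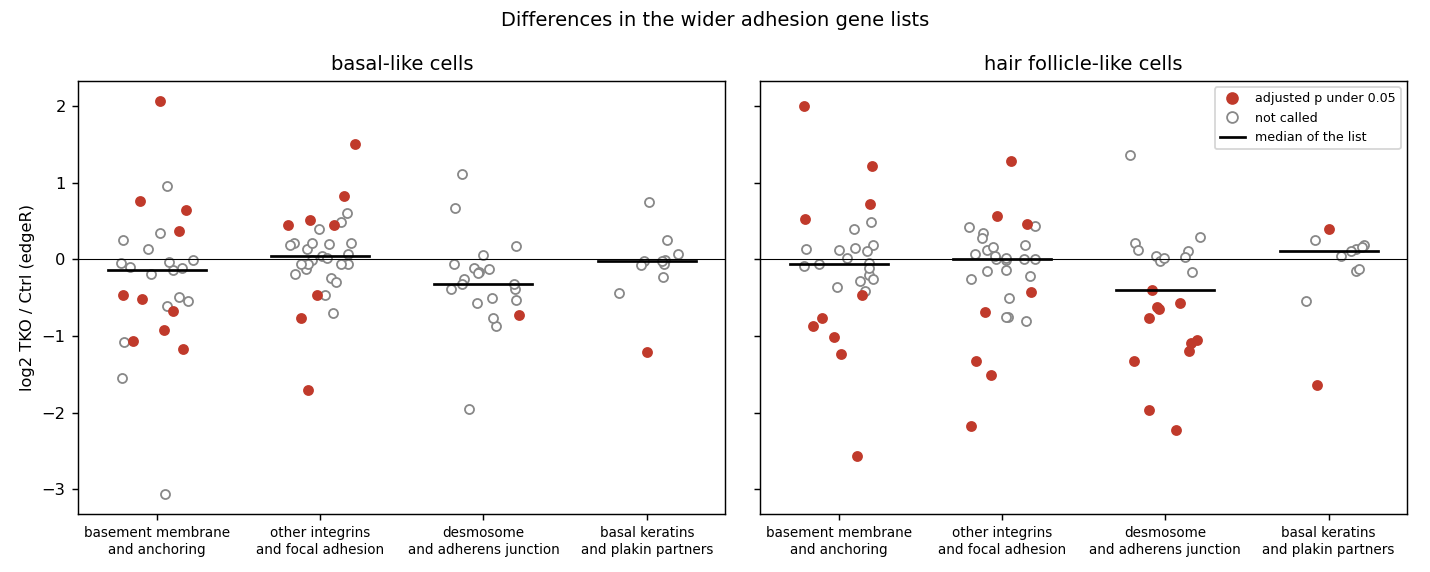
log2 ratio of TKO to Ctrl for the genes of 4 adhesion lists in basal-like and hair follicle-like cells. Each point is 1 gene, filled where its adjusted p was under 0.05, and the bar is the list's median. The desmosome list has 1 filled point on the left and 11 on the right, all below 0.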

How the data were processed

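The authors prepared 10x Genomics 3′ libraries and deposited 1 matrix of filtered barcodes per library, holding UMI counts that are whole and not normalized. Per the file headers Cell Ranger 7.1.0 made them, although the methods state a different version. Reads were aligned to GRCm39. Which annotation was used, whether intronic reads counted and whether strand was used were not given in the sources used here.

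Cells with at least 2000 genes and at most 10% mitochondrial UMIs were kept, and the highest doublet scores of each library, at 0.8% per 1000 barcodes, were left out (457 cells). Clusters came from 2000 variable genes, 30 Harmony-aligned components (own implementation, scanpy 1.11.5), 20 neighbours and Leiden resolution 1. They were named "-like" from at least 3 detected markers. The final clustering left out the members, the gene lists and 1279 genes that differed between genotypes. UMIs were summed per class and library, and these sums were tested with edgeR 4.0.16 (R 4.3.3, quasi-likelihood, TMM, default expression filter). Adjusted p-values are Benjamini-Hochberg over all genes tested, with 0.05 as the threshold. Class by genotype terms and the split of TKO cells were fitted the same way, with library as a term. On simulated data, only the main edgeR fits of the 3 classes, the suprabasal-like against basal-like term and the split of TKO cells were run. The changes put in were larger than those of the members in these fits, so changes as small as theirs were not covered. The alternative settings and the hair follicle-like against basal-like term were not run on simulated data. DESeq2 1.42.0 was an alternative. CPM are a gene's UMIs per 1000000 UMIs of the class. Libraries came from separate embryos, 1 each, with replicate numbers from the labels.

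The members and lists were chosen with earlier results of these data known. Named beside the members are, of each further list, at most 8 genes with the smallest adjusted p among those called in basal-like cells, the 10 genes most similar in pattern, the targeted genes and Epcam. Others are said to have been chosen after their values were seen, except Col7a1, Itga1, Krt14 and Krt15 in hair follicle-like cells. One further gene is not reported here. RefSeq promoter windows were found for Col17a1, Lamb3, Itgb1, Itga3 and Dst. Intervals and shares cover counting error only.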

Additional observations from a re-analysis of the deposited data

How the results depend on the processing

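The counts of called genes depended on the settings more than the members' values did. Single values of members in all keratinocytes are not reported and not counted here, but Lama3 was called there under 2 and Col17a1 under 3 of 11 alternatives. In the 3 classes and the split of TKO cells, of 404 comparisons of a single member with an alternative, 338 kept direction and side of the threshold, 16 passed only under the alternative, 3 lost the call and 47 changed direction. Of 54 class levels, 50 moved by less than the spread between libraries. Alternatives without the clusters led by Pthlh or Fosl1, and the crossed pairing, were chosen after seeing the data. Col17a1 in hair follicle-like cells ran from -0.72 to -0.43 on the log2 scale and passed in 14 of 15 alternatives, Lama3 from -0.78 to -0.50 and in 14 of 15. There were 2 embryos a group, and few UMIs of Itga3 and Lamb3 in suprabasal-like cells. The causes of the differences were not tested.

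In all keratinocytes, 1371 genes were called, against 2649 by DESeq2, 629 without an expression filter, 890 at 5000 UMIs per cell and 2 to 1832 with 1 library left out. Members called there numbered 0, against 2 by DESeq2 and 0 to 1 with 1 library left out. In basal-like cells 2047 genes became 760 without a filter, 1210 at 5000 UMIs and 70 to 669 with 1 library left out, and members called went from 0 to 2 with DESeq2, to 1 at 5000 UMIs, to 1 with uncorrected components and to 0 to 1 with 1 library left out. In suprabasal-like cells 132 genes became 557 with DESeq2, 1608 without a filter, 201 at 5000 UMIs, 212 with doublets kept, 375 with uncorrected components and 33 to 424 with 1 library left out, and members called became 2 without a filter. In hair follicle-like cells 2284 genes became 900 at 5000 UMIs, 1297 at Leiden resolution 0.5 and 1015 to 3229 with 1 library left out, and the 2 members called became 1 without the cluster led by Pthlh, 3 without a filter, with the replicate block, at 5000 UMIs, at Leiden resolution 0.5 and with uncorrected components, and 1 to 4 with 1 library left out.

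The genotype effect differed between suprabasal-like and basal-like cells for 536 genes, against 1368 without a filter, 210 at 5000 UMIs, 907 with doublets kept, 1362 with uncorrected components, 283 at Leiden resolution 0.5 and 0 to 277 with 1 library left out. Members went from 0 to 2 without a filter (Dst and Itgb4) and to 1 with uncorrected components (Itgb4). Between hair follicle-like and basal-like cells 50 genes became 614, 78, 111, 611 and 214 under the same 5 settings and 0 to 93 with 1 library left out. Of the 2 members called between derepressed and other cells, 1 remained at 2 UMIs or more (Itga6).

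Same-numbered Ctrl and TKO libraries did not deviate together (correlations of their deviations -0.362, -0.193, -0.361 and -0.102 in keratinocytes and the 3 classes). The samples share only a number, and the replicate block called 716 genes in all keratinocytes and added a call of Lamb3 in hair follicle-like cells, which the crossed pairing did not. Paired crosswise instead, 3401 genes were called in all keratinocytes and 1257 in suprabasal-like cells, with 2 members each. The block and DESeq2 were not run for the difference between classes, where library is already a term.

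Changes of direction, on the log2 scale, were as follows. In basal-like cells Itgb1 (-0.02) went to 0.0096 at 5000 UMIs and 0.11 without the clusters led by Fosl1, and with 1 library left out Itga6 ran from -0.30 to 0.16, Itga3 from -0.27 to 0.015, Itgb1 from -0.12 to 0.061 and Dst from -0.20 to 0.054. In suprabasal-like cells Itga6 (-0.019) went to 0.079 with the replicate block, 0.088 with the crossed block, 0.038 with doublets kept and 0.033 with the changed genes and members kept in clustering. Itgb1 there (0.30) went to -0.13 at 5000 UMIs, -0.17 with uncorrected components and -0.036 at Leiden resolution 0.5. Col17a1 there (0.021) went to -0.0015 without a filter, -0.34 at 5000 UMIs, -0.17 with doublets kept, -0.85 with uncorrected components, -0.79 at Leiden resolution 0.5 and -0.11 with those genes kept. Lamb3 there (0.32) went to -0.38 at Leiden resolution 0.5 and -0.073 with those genes kept. With 1 library left out, suprabasal-like values ran from -0.50 to 0.64 for Itga6, -1.10 to 0.75 for Itga3, -0.091 to 0.65 for Itgb1, -0.37 to 0.49 for Col17a1 and -0.33 to 0.80 for Lamb3. In hair follicle-like cells Itgb4 (-0.034) went to 0.082 without the cluster led by Pthlh, Itga3 (0.045) to -0.039 at 5000 UMIs, -0.015 with doublets kept, -0.021 with uncorrected components and -0.027 at Leiden resolution 0.5, and Plec (0.019) to -0.16 with uncorrected components, -0.13 at Leiden resolution 0.5 and -0.0017 with those genes kept. With 1 library left out these ran from -0.087 to 0.012 for Itgb4, -0.028 to 0.12 for Itga3 and -0.086 to 0.12 for Plec. Between derepressed and other cells, Itga3, Itgb1 and Lama3 went to 0.0051, 0.0015 and 0.024 at 2 UMIs or more.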
